A study of Mus musculus with 8 samples.

Results

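Leukaemia inhibitory factor (Lif), its receptor chains Lifr and Il6st, the transcription factor Stat3, the feedback inhibitor Socs3 and the gland transcription factor Foxa2 form a signalling route of the uterus, and their transcripts were compared here between mice that inhaled electronic cigarette aerosol and sham mice. The members were taken as the probe sets whose symbol in the platform annotation is one of these 6 names, of 19505 genes measured, and each of the 6 had 1 probe set. Arrays were made from whole uterus of 8 wildtype C57BL/6J mice, an inbred strain, on the morning of day 4.5 of pseudopregnancy, 1 mouse to an array. The 4 exposed mice breathed aerosol of propylene glycol and vegetable glycerin (55 to 45 parts) with 24 mg/mL nicotine and no flavouring, for 3 hours a day, with 4 weeks of such exposure, 5 days in each, ahead of mating and then exposure on every day up to collection. The 4 sham mice breathed room air. All dams of both groups had been mated to vasectomised males, so no uterus held an embryo, and their age is not stated in the labels used here. Inhaled propylene glycol, glycerin and nicotine came together, so their parts in any difference cannot be told apart.

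In the mouse, glands of the uterus release LIF under the surge of oestrogen that precedes implantation, and without LIF embryos do not implant. LIF binds LIFR, which pairs with gp130, the product of Il6st, and the Janus kinases bound to these chains phosphorylate STAT3 in the epithelium. Phosphorylated STAT3 enters the nucleus and switches on genes that include Socs3, whose protein then inhibits the kinases. FOXA2 is found in the glands and is needed for their Lif expression. Phosphorylation is not seen on an expression array, so the values below are transcript levels alone.

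Socs3 is the one member whose promoter window held a STAT motif, and 1 of the 9 member windows is close to the 8.30% share over all windows. Promoter windows of 300 bases, 250 before and 50 after a gene's start, were taken from RefSeq (GRCm38.p6) for all 6 members, 9 windows in all, and searched for the letters TTCNNNGAA, which read the same on both strands, for the FOXA core TGTTTAC and for the consensus oestrogen response element, the last 2 on both strands. The STAT letters were found in 8.30% of the 32851 windows of the table, the FOXA letters in 3.65% and the oestrogen element in 0.0700%. Of the 9 member windows, 1 held a motif, that of Socs3 at chr11:117969317-117969616 on the minus strand, with the first base of the match 154 bases before the start. It is shown because Socs3 is the member known as a STAT3 target, with the match in capitals. Both windows of Lifr, the member with the largest difference between groups, are shown after it because they differ in make-up, and they held no match to the 3 motifs. The first, at chr15:7129322-7129621 on the plus strand, was 81.3% G and C, and the second, at chr15:7140292-7140591 on the plus strand, 53.3%, against a median of 52.7% over all windows. The Lifr probe set gives 1 value for the gene, so transcripts from these starts were not told apart.
Socs3: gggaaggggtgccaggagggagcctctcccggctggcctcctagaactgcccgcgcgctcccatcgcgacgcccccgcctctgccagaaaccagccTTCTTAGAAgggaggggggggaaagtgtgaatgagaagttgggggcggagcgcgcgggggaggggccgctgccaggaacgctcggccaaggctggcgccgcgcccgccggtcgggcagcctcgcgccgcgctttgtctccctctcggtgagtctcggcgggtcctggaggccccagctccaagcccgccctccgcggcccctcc
Lifr, first start: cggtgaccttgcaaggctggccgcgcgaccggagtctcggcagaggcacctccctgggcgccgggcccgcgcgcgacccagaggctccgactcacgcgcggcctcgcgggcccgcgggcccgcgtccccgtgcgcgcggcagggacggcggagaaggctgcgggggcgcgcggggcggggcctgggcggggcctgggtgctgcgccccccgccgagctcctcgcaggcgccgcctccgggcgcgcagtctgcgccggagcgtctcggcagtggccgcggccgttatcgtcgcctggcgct
Lifr, second start: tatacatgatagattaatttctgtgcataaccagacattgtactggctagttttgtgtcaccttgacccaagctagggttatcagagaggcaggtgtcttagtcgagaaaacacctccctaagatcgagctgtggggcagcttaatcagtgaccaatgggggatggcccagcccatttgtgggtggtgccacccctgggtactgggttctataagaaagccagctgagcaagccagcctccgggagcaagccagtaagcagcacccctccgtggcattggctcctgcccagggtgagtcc

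Values are log2 expression, on which 1 unit is a factor of 2, and the median of the arrays was 7.08. Brightness of a probe set depends on the probes too, so levels were compared between mice and not between genes. The differences between groups, exposed minus sham, were fitted with limma over all 22206 probe sets and adjusted over all of them (Benjamini-Hochberg), where 0% of them (0 probe sets) passed the threshold of 0.05. Limma put 5.42% of probe sets at an unadjusted p under 0.05, and the 4 exposed values lay outside the sham range on one side at 2.73%. Exposed mice 4 and 2 stood apart from the other 6 on the first principal component, which carried 38.6% of the variance (40.6 and 26.1, others -18.8 to 1.85). The difference without both mice is given where it was over 1.5 times larger or smaller or had the other sign. This was done for members, pathway genes with a printed difference and pathway list medians. Genes named without a difference have no such value. The uterine transcription factors and receptors Pgr, Esr1, Hoxa10, Hoxa11, Hand2 and Wnt7a were measured in every mouse, with a mean over the 6 of 9.33 to 9.50 in exposed and 9.21 to 9.49 in sham uteri, and the mean of 4 ovary markers (Cyp11a1, Inha, Star and Amh) was 5.85 to 6.17 in exposed and 5.83 to 5.95 in sham uteri. Of these, the steroid enzyme Cyp11a1 was at 4.00 ± 0.11 in exposed and 4.04 ± 0.06 in sham mice, and the inhibin subunit Inha, above the array median, at 7.54 ± 0.29 in exposed and 7.45 ± 0.17 in sham mice (SD, n = 4 each).

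Of the 6 members, 2 had higher and 4 lower means after exposure, 0 passed limma's adjusted p of 0.05 and 1, Lifr, had an unadjusted p under 0.05. In all 6 the exposed and sham values overlapped. Lifr had the largest difference, 1.60-fold higher in exposed mice, and 3 of the 4 exposed mice exceeded every sham mouse. These mice, 2, 3 and 4, lay outside the sham range on one side, in either direction, at 2276 of the 22206 probe sets. The other 5 members differed by 1.08-fold to 1.19-fold. For Lif, Il6st, Stat3, Socs3 and Foxa2 the difference between groups was smaller than the SD between exposed mice. For Socs3 and Foxa2 it was larger than the SD between sham mice (0.14 and 0.19).

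**Figure D1:**
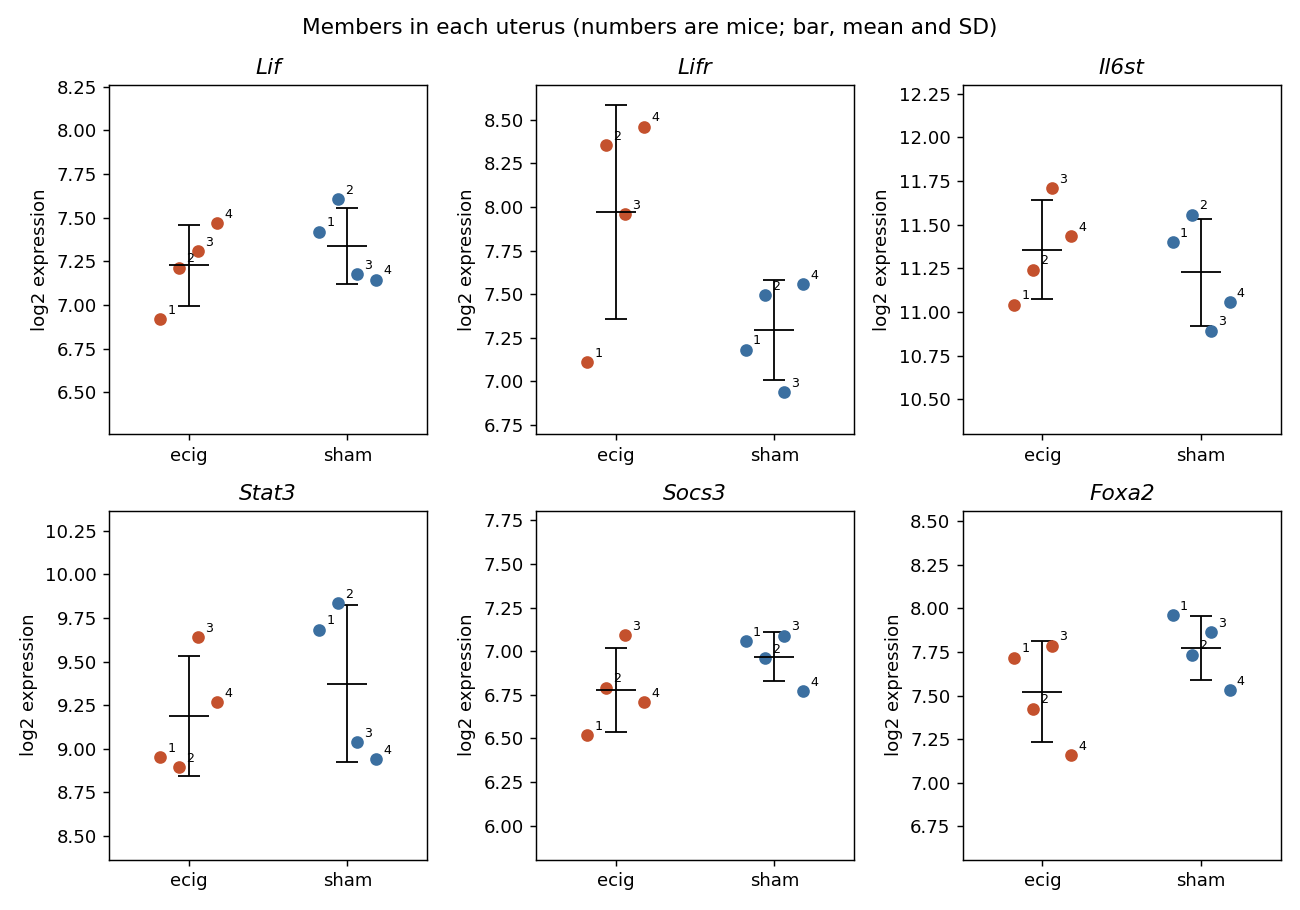
Log2 expression of the 6 members in each uterus, exposed mice (ecig) left and sham mice right, with the mouse number beside each point and the mean and SD as bars. Every panel spans 2 log2 units; Lifr exceeds 7.95 in exposed mice 2, 3 and 4 and is below 7.57 in exposed mouse 1 and all sham mice, and the groups overlap in all panels.

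Lif, the secreted ligand, was at 6.92, 7.21, 7.31 and 7.47 in exposed mice 1 to 4, against 7.42, 7.60, 7.18 and 7.14 in sham mice 1 to 4. Exposed mouse 1 was the lowest of all, and the other 3 exposed mice lay within the sham range. The difference was -0.11 ± 0.14 (SE), with a 95% confidence interval of -0.43 to 0.21 (limma adjusted p = 0.896, exact two-sided permutation p = 0.543). At its bounds this interval allows a level up to 1.34-fold lower or 1.16-fold higher in exposed uteri. Without exposed mouse 1 the difference was -0.0054, and without exposed mice 2 and 4 it was -0.22.

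Lifr, the receptor chain that binds LIF, was at 7.11, 8.35, 7.96 and 8.46 in exposed mice 1 to 4, against 7.18, 7.49, 6.94 and 7.56 in sham mice 1 to 4. Exposed mouse 1 lay among the sham mice, while exposed mice 2, 3 and 4 were above all of them. The difference was 0.68 ± 0.27 (SE), with a 95% confidence interval of 0.073 to 1.28 (limma unadjusted p = 0.0315, adjusted p = 0.838). Over the 70 ways of assigning the mice to groups, the exact two-sided permutation p was 0.114, where 0.0286 is the smallest that 4 against 4 allows. The difference was 0.96 without exposed mouse 1 (limma adjusted p = 0.240) and 0.24 without exposed mice 2 and 4, and over 19 alternatives the adjusted p ran from 0.240 to 1.00. Lifr was among the more variable probe sets, with an SD between exposed mice larger than in 97.5% of probe sets and between sham mice larger than in 91.6%.

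Il6st, which encodes the signalling chain gp130 that the whole interleukin 6 family shares, was at 11.04, 11.24, 11.71 and 11.43 in exposed mice 1 to 4, against 11.40, 11.56, 10.89 and 11.06 in sham mice 1 to 4. Exposed mouse 3 was the highest and sham mouse 3 the lowest, and the groups covered nearly the same range. The difference was 0.13 ± 0.18 (SE; 95% confidence interval -0.26 to 0.52; limma adjusted p = 0.899; exact permutation p = 0.571). Without exposed mouse 3 it was 0.012.

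Stat3, the transcription factor that the receptor activates, was at 8.95, 8.89, 9.64 and 9.27 in exposed mice 1 to 4, against 9.68, 9.84, 9.04 and 8.94 in sham mice 1 to 4. Each group held 2 mice above 9.2 and 2 below 9.1. The difference was -0.19 ± 0.23 (SE; 95% confidence interval -0.70 to 0.33; limma adjusted p = 0.893; exact permutation p = 0.514). It was -0.031 without sham mouse 2, -0.34 without exposed mouse 3 and -0.077 without exposed mice 2 and 4. The SD between sham mice, 0.45, exceeded that of 97.9% of probe sets.

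Socs3, the feedback inhibitor of the kinases, was at 6.52, 6.79, 7.09 and 6.71 in exposed mice 1 to 4, against 7.06, 6.96, 7.09 and 6.77 in sham mice 1 to 4. Exposed mice 1 and 4 were below all sham mice, and exposed mouse 3 was level with the highest of them. The difference was -0.19 ± 0.13 (SE; 95% confidence interval -0.48 to 0.098; limma adjusted p = 0.841; exact permutation p = 0.286). It was -0.11 without exposed mouse 1 and -0.30 without exposed mouse 3.

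Foxa2, the transcription factor of the glands, was at 7.72, 7.42, 7.78 and 7.16 in exposed mice 1 to 4, against 7.96, 7.73, 7.86 and 7.53 in sham mice 1 to 4. Exposed mice 2 and 4 were below all sham mice, and exposed mice 1 and 3 lay within their range. The difference was -0.25 ± 0.15 (SE; 95% confidence interval -0.59 to 0.086; limma adjusted p = 0.838; exact permutation p = 0.200). It was -0.13 without exposed mouse 4 and -0.021 without exposed mice 2 and 4. In whole tissue, fewer gland cells and less Foxa2 RNA per gland cell cannot be told apart.

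Some markers of the luminal epithelium were low in the exposed mice that stood apart. Of 6 luminal epithelium markers 5 were measured (Wnt7a, Lpar3, Calb1, Ihh and Muc1), and their mean was 8.36, 7.89, 8.42 and 7.09 in exposed mice 1 to 4, against 8.33, 8.30, 8.60 and 8.46 in sham mice 1 to 4. It was thus lowest in exposed mice 4 and 2, where Foxa2 was lowest and Lifr highest. Lpar3, Calb1, Ihh and Muc1 were each lowest in exposed mice 4 and 2, while Wnt7a was highest in exposed mouse 2 (7.97). The mean of 5 general epithelium markers (Krt8, Krt18, Krt19, Epcam and Cdh1) was 9.16, 9.41, 9.12 and 8.755 in exposed mice 1 to 4, against 9.13, 9.10, 9.39 and 9.67 in sham mice 1 to 4. Exposed mouse 4 was the lowest of all there, but exposed mouse 2 was above 3 of the 4 sham mice. The mean of 5 gland markers (Spink1, Cxcl15, Prss28, Prss29 and Aldh1a1) was 6.99 to 10.1 in exposed and 7.21 to 7.69 in sham mice, highest in exposed mouse 4. The markers were split there, with Spink1, Prss28 and Prss29 at their highest of all mice. Cxcl15 (6.51) and Aldh1a1 (7.08) were at their lowest in that mouse. The part of these cell types in either result was not tested. The mean of 6 smooth muscle markers was 11.04 to 11.80 in exposed and 11.35 to 11.92 in sham mice, and that of 5 endothelial markers 9.15 to 9.60 in exposed and 8.87 to 9.56 in sham mice. The mean of 6 adipocyte markers was high in exposed mice 1 and 2 (6.46 and 6.74), against 5.12 and 5.32 in exposed mice 3 and 4 and 5.15 to 5.61 in sham mice. Of these 6, 5 had higher means after exposure and 1, Lep, a lower one. Lifr was at 7.11, 8.35, 7.96 and 8.46 in exposed mice 1 to 4, and the part of adipocytes in these values was not tested.

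The members did not follow one order across the mice. Sham mice 1 and 2 and exposed mice 3 and 4 were the 4 highest for each of Lif, Il6st and Stat3, so that these 3 genes split each group in the same way. Lifr and Foxa2 ran the other way to each other, with exposed mice 4 and 2 at the ends of both. Of the 15 pairs of members, 4 had an unadjusted exact permutation p under 0.05 for Pearson's r over the 8 mice and 0 passed after Benjamini-Hochberg adjustment over the 15 pairs, so the relations are given as values.

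For Il6st and Stat3, r was 0.82 (exact permutation p = 0.0215, adjusted p = 0.107) and rho 0.64 (exact permutation p = 0.0962), and r was 0.86 without exposed mouse 3 and sham mouse 3, the 2 mice farthest from the median of Il6st. Taken as deviations from the group means, r was 0.94. For Lif and Stat3, r was 0.79 (exact permutation p = 0.0209, adjusted p = 0.107) and rho 0.76 (exact permutation p = 0.0368), and r was 0.70 without exposed mouse 1 and sham mouse 2. For Lif and Il6st, r was 0.72 (exact permutation p = 0.0433, adjusted p = 0.162) and rho 0.79 (exact permutation p = 0.0279), and r was 0.67 without the same mice. These 3 relations kept their sign within the exposed and within the sham mice, with r between 0.55 and 0.98 over 4 mice each. For Lifr and Foxa2, r was -0.81 (exact permutation p = 0.0130, adjusted p = 0.107) and rho -0.71 (exact permutation p = 0.0576). Without exposed mice 2 and 4 it was -0.38, so the size of this relation rests in part on those mice. Within the exposed mice r was -0.73 and within the sham mice -0.78, over 4 mice each, and as deviations from the group means it was -0.73. Lif and Foxa2, the gland gene and its known regulator, gave r of -0.089 (exact permutation p = 0.834) and rho of 0.048 (exact permutation p = 0.935). All arrays share 1 normalization.

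**Figure D2:**
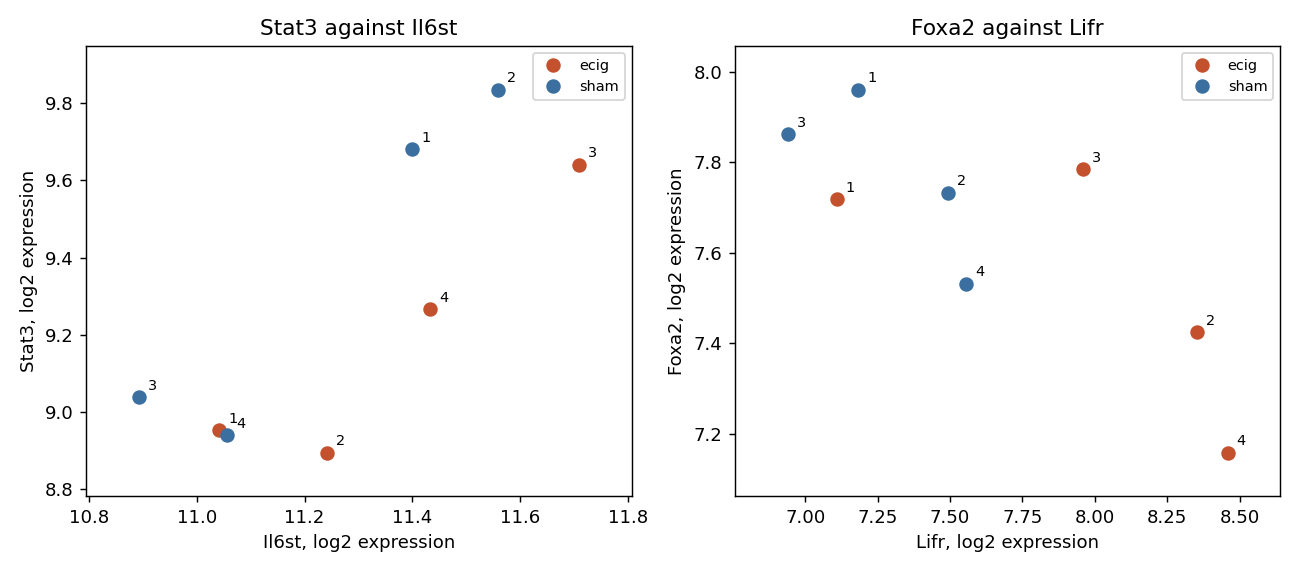
Log2 expression of Stat3 against Il6st (left) and of Foxa2 against Lifr (right) in the 4 exposed (ecig) and 4 sham uteri, each point a mouse with its number. Sham mice 1 and 2 and exposed mice 3 and 4 lie at the upper right for Il6st and Stat3 (r = 0.82), and exposed mice 2 and 4 lie at high Lifr and low Foxa2 (r = -0.81).

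Among 17019 other named genes, those most like each member over the 8 mice were ranked by Pearson's r as a description. Lifr was most like Arhgef26, a guanine nucleotide exchange factor (r = 0.98), Akap13 (r = 0.98) and Oxtr, the oxytocin receptor (r = 0.98), which was at 7.41, 8.42, 8.20 and 8.29 in exposed mice 1 to 4, against 7.48, 7.71, 7.27 and 7.90 in sham mice 1 to 4. Foxa2 was most like Srf, the serum response factor (r = 0.98), Ankfy1 (r = 0.98) and Ndufs4, a subunit of respiratory complex I (r = 0.98). For Lifr 162 genes and for Foxa2 200 genes had r above 0.9, against 13 for Lif, 17 for Il6st, 36 for Stat3 and 10 for Socs3. Stat3 was most like Mettl14 (r = 0.98), Lipe, the hormone-sensitive lipase (r = 0.98), and Plac8 (r = 0.96). Il6st was most like Ccdc71l (r = 0.94) and the paralogous chloride channel accessory genes Clca3a1 (r = 0.94) and Clca3a2 (r = 0.94), whose probe sets may share signal. Clca3a1 was at 7.17, 7.63, 8.64 and 8.48 in exposed mice 1 to 4, against 8.40, 8.90, 7.13 and 7.60 in sham mice 1 to 4, the same 4 mice highest as for Il6st. Lif was most like Ghsr (r = 0.97), Cerk (r = 0.93) and Hdac4, a histone deacetylase (r = 0.92), and Socs3 like Pcdh8 (r = 0.94), Aldoa, a glycolytic aldolase (r = 0.94), and Eid1 (r = 0.94).

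The rest of the pathway was described from 7 lists with 57 measured entries, of which 26 had higher and 31 lower means after exposure. Their median difference was -0.021, beside 0.0014 over all probe sets. None of the 57 (0 entries) passed limma's adjusted threshold. An unadjusted p under 0.05 was reached by 2 of them, Gab1 and Sox17, and by 5.42% of all probe sets. Without exposed mice 2 and 4, list medians were -0.028 for the ligands, 0.062 for the receptors, 0.013 for inhibitors and adaptors, -0.0084 for STAT3 targets and 0.016 for gland genes, beside the medians over all mice given with each list.

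**Figure D3:**
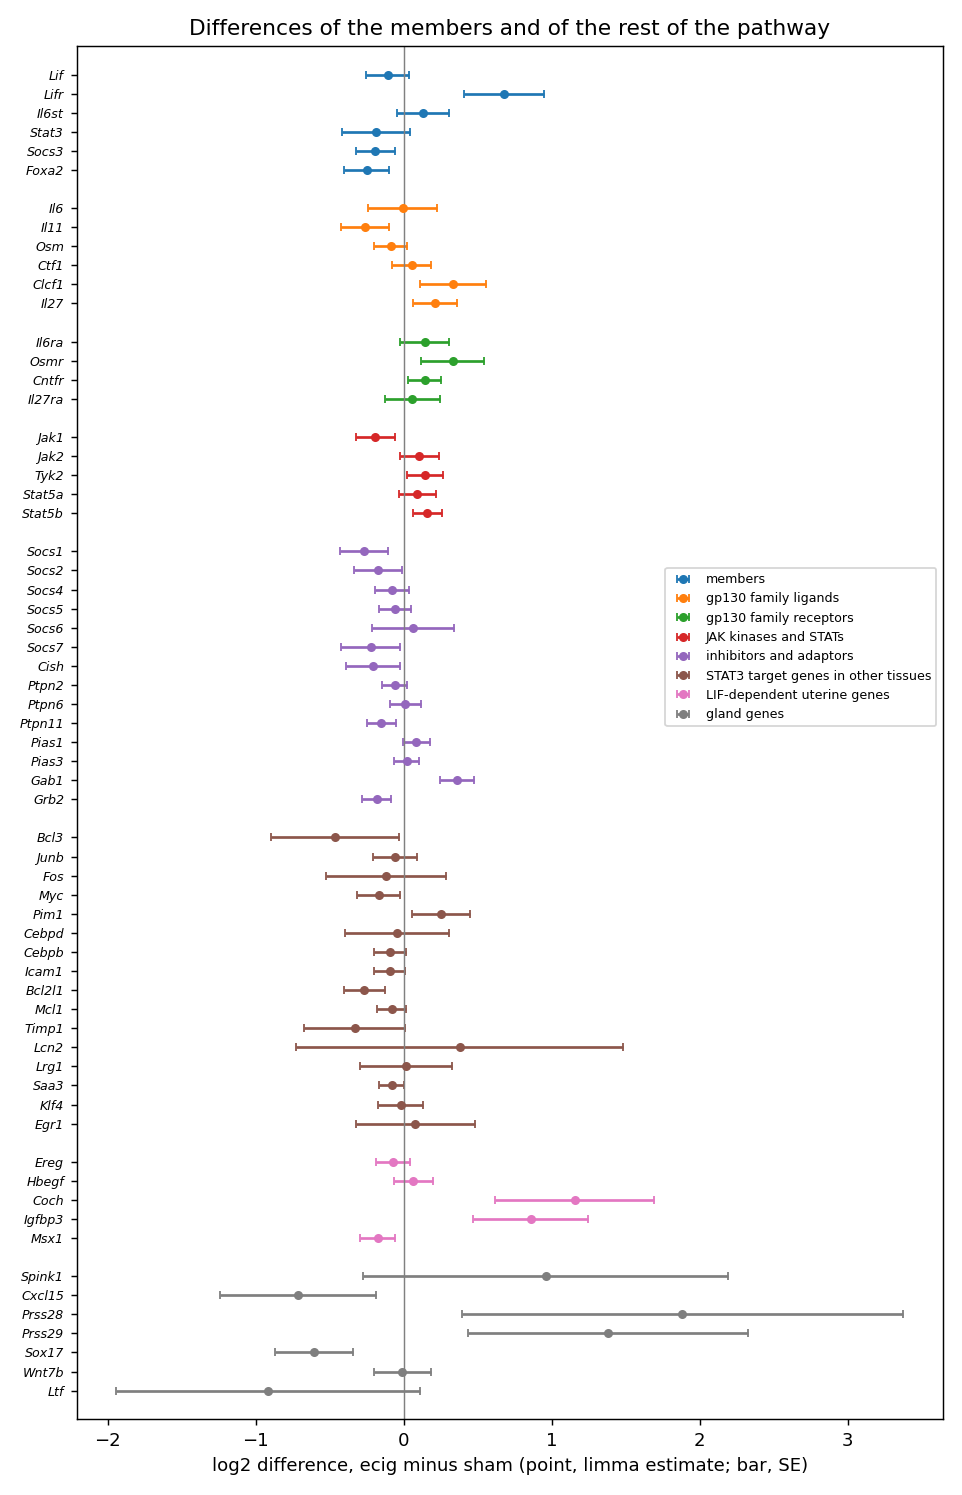
Log2 difference, exposed (ecig) minus sham, of the 6 members and of the 57 entries of the 7 pathway lists, with limma's estimate as a point and its SE as a bar. Most estimates lie within 0.4 of 0, and the widest bars belong to gland genes and Lcn2.

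The other ligands of the gp130 family, of which 6 of 7 were measured, had 3 higher and 3 lower means, a median difference of 0.023, and 0 past the adjusted threshold. Il11, which acts in decidualization, differed by -0.26 ± 0.16 (SE), and Clcf1, a ligand of the ciliary neurotrophic factor receptor, by 0.33 ± 0.22 (SE; -0.020 without exposed mice 2 and 4). The other receptors, 4 of 6 measured, all had higher means, with a median of 0.14 and 0 past the threshold. Over all probe sets 50.5% had higher means. Without exposed mouse 4 the 4 receptor differences ran from -0.11 to 0.22, with a median of 0.070, so the shared direction did not hold. Osmr, the oncostatin M receptor that also pairs with gp130, was at 7.26, 7.39, 7.95 and 7.97 in exposed mice 1 to 4, against 7.39, 7.72, 6.85 and 7.27 in sham mice 1 to 4. Only exposed mice 3 and 4 exceeded the sham range (difference 0.33 ± 0.21, SE; limma adjusted p = 0.841).

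Of 5 kinases and other STATs measured, 4 had higher means and 1, Jak1, a lower one (difference -0.19 ± 0.13, SE, and -0.080 without exposed mice 2 and 4), and the median was 0.10. Among 14 inhibitors and adaptors, 5 had higher and 9 lower means with a median of -0.071. Gab1, an adaptor that links gp130 to the MAP kinase route, was at 8.02, 8.29, 8.09 and 8.28 in exposed mice 1 to 4, against 7.99, 7.90, 7.80 and 7.54 in sham mice 1 to 4. All 4 exposed values lay above all sham values, as at 1.38% of all probe sets. The difference was 0.36 ± 0.12 (SE; limma adjusted p = 0.838; exact permutation p = 0.0286, the smallest that this design allows). Grb2, an adaptor of the same route, differed by -0.18 ± 0.097 (SE), and Socs1, an inhibitor related to Socs3, by -0.27 ± 0.16 (SE). Neither passed the threshold, and without exposed mice 2 and 4 they differed by -0.12 and -0.14.

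Of 16 measured genes known as STAT3 targets in other tissues, 4 had higher and 12 lower means, with a median of -0.080 and 0 past the adjusted or unadjusted threshold in limma. Bcl2l1, which encodes a protein that protects cells from apoptosis, was at 8.37, 8.39, 8.06 and 8.004 in exposed mice 1 to 4, against 8.26, 8.30, 8.73 and 8.61 in sham mice 1 to 4 (difference -0.27 ± 0.14, SE; limma adjusted p = 0.838). A further pair of targets was picked after their values were seen because they have the same 4 highest mice as Stat3, though not in the same order. Cebpd, a transcription factor of the acute phase, was at 7.76, 7.71, 8.86 and 8.75 in exposed mice 1 to 4, against 9.16, 8.45, 7.76 and 7.87 in sham mice 1 to 4. Lrg1, a secreted glycoprotein, was at 6.58, 6.49, 7.75 and 6.90 in exposed mice 1 to 4, against 6.94, 7.65, 6.42 and 6.64 in sham mice 1 to 4. Exposed mice 3 and 4 and sham mice 1 and 2 were again the 4 highest for both, and the groups overlapped. Of the 16 targets 3 had these 4 mice highest (Cebpd, Cebpb and Lrg1) and the other 13 did not, beside 1.99% of the 19505 genes measured. In the other pathway lists Osmr, Spink1 and Prss28 had them highest and the remaining genes did not. The set of 4 mice was taken from Lif, Il6st and Stat3 in these same data, so these counts are a description only. Pim1, a kinase, differed by 0.25 ± 0.20 (SE; -0.13 without exposed mice 2 and 4) and Myc by -0.17 ± 0.14 (SE; 0.023 without them).

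Genes that depend on LIF in the mouse uterus gave some of the wider values. Of 6 listed, 5 were measured, 3 with higher and 2 with lower means and a median of 0.064, which was -0.059 without exposed mice 2 and 4. Coch, which encodes cochlin, was at 6.56, 7.66, 8.39 and 9.56 in exposed mice 1 to 4, against 7.19, 7.52, 6.39 and 6.44 in sham mice 1 to 4. Exposed mice 2, 3 and 4 were above every sham mouse and exposed mouse 1 was not, the same split as for Lifr (difference 1.16 ± 0.54, SE; limma adjusted p = 0.838; exact permutation p = 0.114). Without exposed mice 2 and 4 the difference was 0.59. Exposed mice 2, 3 and 4 lay outside the sham range on one side at 2276 of the 22206 probe sets, so the shared split is a description only. Igfbp3, an insulin-like growth factor binding protein, was at 9.13, 9.96, 8.85 and 10.86 in exposed mice 1 to 4, against 8.85, 8.72, 8.44 and 9.36 in sham mice 1 to 4. Exposed mice 2 and 4 alone exceeded the sham range (difference 0.86 ± 0.39, SE; limma adjusted p = 0.838), and without them the difference was 0.15. Msx1, a transcription factor that LIF signalling lowers, differed by -0.18 ± 0.12 (SE), and Hbegf and Ereg, both ligands of the epidermal growth factor family, by 0.064 ± 0.13 and -0.075 ± 0.12 (SE), with Hbegf at -0.088 without exposed mice 2 and 4.

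Genes of the glands, all 7 measured, had 3 higher and 4 lower means with a median of -0.0088 (-0.21 without exposed mouse 4), and 0 passed the adjusted threshold. Exposed mouse 4 carried much of the difference for Prss28, Prss29, Spink1 and Cxcl15, which without it was 0.043, 0.19, -0.23 and -0.058. Sox17 differed by -0.31 without that mouse. Sox17, a transcription factor of the epithelium, was at 9.23, 8.68, 9.05 and 7.80 in exposed mice 1 to 4, against 9.25, 9.21, 9.52 and 9.21 in sham mice 1 to 4, with exposed mice 2, 3 and 4 below every sham mouse (difference -0.61 ± 0.26, SE; limma adjusted p = 0.838). Without exposed mice 2 and 4 it was -0.16. Cxcl15, a chemokine of the glands, was at 9.20, 8.996, 9.23 and 6.51 in exposed mice 1 to 4, against 9.30, 9.36, 9.37 and 8.77 in sham mice 1 to 4. Exposed mouse 4 alone fell outside the sham range (difference -0.72 ± 0.53, SE; limma adjusted p = 0.845), and without exposed mice 2 and 4 the difference was 0.016.

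The gland serine proteases were high in that mouse. Prss28 was at 4.51, 4.53, 6.80 and 12.64 in exposed mice 1 to 4, against 5.42, 5.67, 5.15 and 4.69 in sham mice 1 to 4. Prss29 was at 6.68, 7.16, 8.04 and 12.04 in exposed mice 1 to 4, against 6.92, 7.12, 7.21 and 7.15 in sham mice 1 to 4. Neither difference passed (limma adjusted p = 0.852 for Prss28 and 0.841 for Prss29). The difference of Prss28 was 1.88, and 0.42 without exposed mice 2 and 4, and that of Prss29 1.38, and 0.26 without them. Spink1, a protease inhibitor of the glands named after its values were seen, was at 6.69, 6.04, 9.66 and 12.22 in exposed mice 1 to 4, against 8.87, 8.98, 6.57 and 6.35 in sham mice 1 to 4. Its 4 highest mice were those of Lif, Il6st and Stat3, and its difference between groups was 0.96 ± 1.23 (SE; 0.48 without exposed mice 2 and 4, and -0.23 without exposed mouse 4 alone). In exposed mouse 4, Lif was at 7.47, within the sham range, while Foxa2 and Cxcl15 were at their lowest.

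**Figure D4:**
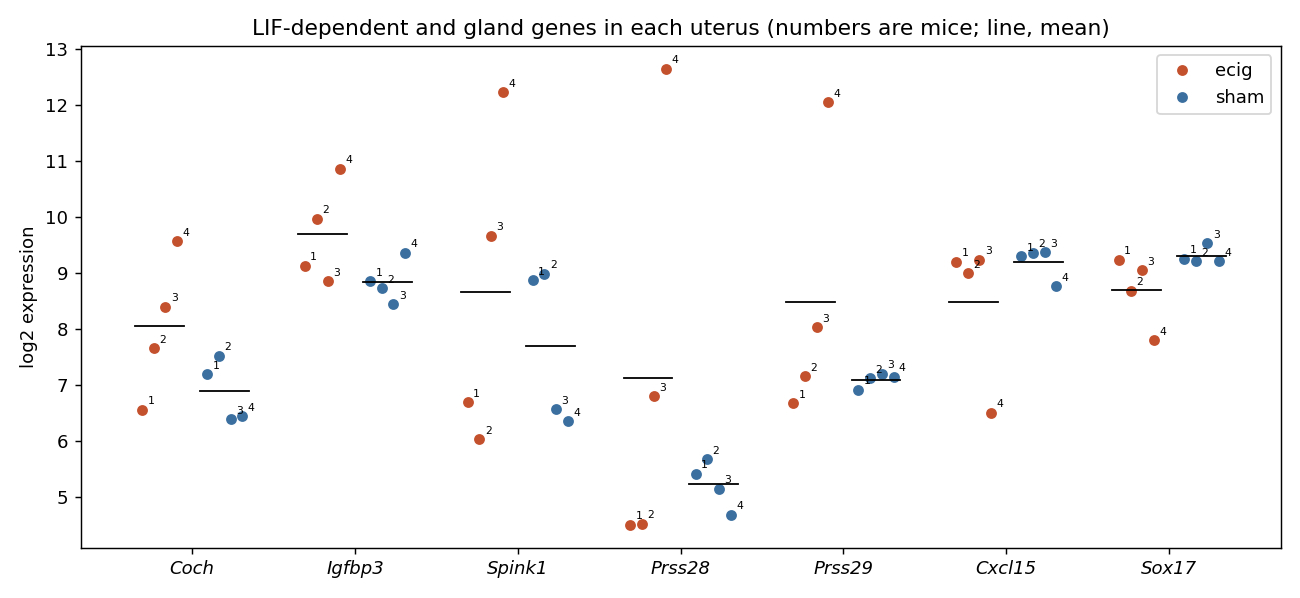
Log2 expression of Coch, Igfbp3, Spink1, Prss28, Prss29, Cxcl15 and Sox17 in each uterus, exposed mice (ecig) left and sham mice right within each gene, with mouse numbers and the group mean as a line. Exposed mouse 4 is highest for the first 5 genes (Prss28 at 12.64) and lowest for Cxcl15 (6.51) and Sox17 (7.80).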

How the data were processed

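Total RNA of each uterus was labelled with biotin and hybridised to 1 array, per the labels' protocols. The authors deposited log2 values for 22206 probe sets and 8 arrays. Their range, 2.75 to 13.6, is that of a log2 scale, which is not stated, and Partek is named without a version per the submitters' processing notes, which state no background correction or scaling. The arrays share 1 distribution to within 0.0198, so no normalization was added, and a change shared by all genes would not be seen.

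Groups came from the sample titles. Of 22206 probe sets, 19572 carry 1 gene symbol, and the one of highest mean stood for a gene. Differences were fitted with limma 3.58.1 (lmFit, eBayes) in R 4.3.3 without covariates. The step was run on simulated arrays whose values were drawn independently for each probe set and mouse. Those lack the variation that the real arrays share, so the run cannot show how the fit behaves under it. Exact tests took all 70 assignments of mice, or all 40320 orderings for correlations (Python 3.11.15). The number of arrays limits precision. Named were the 6 members, most of the 3 genes of smallest p per pathway list, some other list genes and the 3 genes most like each member. Il27, Il6ra, Cntfr, Tyk2 and Stat5b, also among the 3 of smallest p in their lists, were given only in counts, medians and a figure. Not all marker genes of smallest p were named. Predicted genes, clones, olfactory and vomeronasal receptors and small RNAs were left out of the genes most like a member. The members and lists were chosen with earlier results of these data known. Some list genes were not analysed here. Alternatives covered normalization, filters on dim probe sets, variance estimates, array weights, a replicate block, the mean of all probe sets and each mouse left out, and, chosen after the data were seen, exposed mice 2 and 4 left out together.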

Additional observations from a re-analysis of the deposited data

Results flagged for a closer look

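Among 190 groups of 4 mice examined (members, pathway genes, genes most like a member and marker means), 8 held a mouse set apart from its group under Dixon's criterion, and chance gives about 1 in 20. None of the 6 members was among them. Exposed mouse 4 stood apart for Cish, a cytokine-induced inhibitor (5.309, other exposed mice 6.07 to 6.14), Cxcl15 (6.506, others 8.996 to 9.23) and Wnt7b, a secreted ligand of the epithelium (7.110, others 6.22 to 6.34). Exposed mouse 2 stood apart for Jak1 (8.320, others 8.75 to 8.78). Sham mouse 4 stood apart for Cxcl15 (8.767, other sham mice 9.30 to 9.37), the mean of smooth muscle markers (11.352, others 11.8 to 11.9) and the mean of oviduct markers (8.422, others 9.10 to 9.24), and sham mouse 3 for Sox17 (9.525, others 9.21 to 9.25).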

How the results depend on the processing

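The 6 members kept their direction and stayed short of limma's adjusted p of 0.05 in all 113 alternative fits. Socs3 has no value with the 50th percentile filter, which leaves it out. Over single mice left out, the differences ran from -0.19 to -0.0054 for Lif, 0.51 to 0.96 for Lifr, 0.012 to 0.24 for Il6st, -0.34 to -0.031 for Stat3, -0.30 to -0.11 for Socs3 and -0.34 to -0.13 for Foxa2. Leaving out 1 mouse gave 726 to 2545 probe sets at an unadjusted p under 0.05, the highest without exposed mouse 1 and the lowest without sham mouse 2, against 1203 with all mice. It gave 0 to 1 past the adjusted threshold, the 1 being Cldn10 without exposed mouse 1 (limma adjusted p = 0.0233), and 1016 to 2276 with groups that do not overlap, against 607. That last count rises with fewer mice by construction, and was 2712 without exposed mice 2 and 4. The 50th percentile filter, with fewer probe sets tested, gave 796 and 379. It also moved list medians, to 0.19 for gp130 ligands (0.21 with the 25th percentile filter), 0.33 for receptors, 0.86 for LIF-dependent genes and -0.61 for gland genes, as fewer genes remained. Of the 15 correlations 5 changed sign. Without the 2 farthest mice r was -0.044 for Lif and Socs3 (0.49 with all mice), 0.43 for Lifr and Stat3 (-0.043), 0.20 for Lifr and Socs3 (-0.21) and 0.024 for Il6st and Foxa2 (-0.039). As deviations from group means it was 0.16, 0.15 and 0.11 for the last 3 pairs, and rho was 0.048 for Lif and Foxa2 (r -0.089). The cause was not tested. Over all probe sets, deviations of same-numbered mice correlated at 0.080, -0.24, 0.085 and 0.075, and 1 of 8 mice correlated best with its own number. These values cannot exclude a pairing by number, which the sample titles do not state. With the replicate block, 0 probe sets passed adjustment and 1274 had an unadjusted p under 0.05. Lifr then differed by 0.68 ± 0.18 (SE; limma unadjusted p = 0.00725, adjusted p = 0.808). Foxa2 differed by -0.25 ± 0.097 (SE; limma unadjusted p = 0.0354, adjusted p = 0.808).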
